A study of Danio rerio with 11 samples.

Results

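The transcriptome was measured in whole zebrafish larvae whose parents had been kept with diisobutyl phthalate (DiBP), a branched-chain phthalate plasticiser, and was set against that of larvae of unexposed parents. Of the 11 libraries in the series, 5 carry this comparison: 3 of DiBP offspring (libraries 1 to 3) and 2 of control offspring (libraries 1 and 2), chosen by their labels. The other 6 libraries, 3 from parents kept with the straight-chain isomer dibutyl phthalate (DBP) and 3 from parents kept with DBP and DiBP together (the combined exposure), entered the fit to estimate the spread and are quoted where they bear on the DiBP values. All larvae were wild-type AB fish, frozen whole 120 h after fertilization, and the exposed parents had been kept with their agent for 30 days. Doses, the collection hour and how many larvae went into a library are not stated in the labels. The labels name no clutch or tank, so p-values cover the spread among these libraries alone, and that spread may be technical. A further control of the triplicate design was not analysed here.

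The circadian clock of vertebrates is a feedback loop. CLOCK and BMAL proteins switch on the period and cryptochrome genes, whose proteins return to the nucleus and repress CLOCK and BMAL, while the Rev-erb receptors (NR1D genes) repress and the ROR receptors activate transcription of the BMAL genes. The factors of the DBP, TEF and HLF family and the opposing repressor NFIL3 carry the rhythm to output genes, and in zebrafish light itself switches on per2 and some cryptochrome and photolyase genes in most tissues. The transcription factor genes dbpa and dbpb are unrelated to the phthalate DBP.

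Depth was even, with 14690854, 15381114 and 15046503 reads in the DiBP libraries and 14703472 and 15061899 in the controls. Of 27625 genes listed, 19465 passed a filter on low values and were tested. Levels are given as FPKM (read pairs per kilobase of gene, scaled for depth), and changes as DiBP minus control on the log2(FPKM + 0.1) scale after rescaling between libraries, with the standard error of the fit. Changes of weakly expressed genes are understated on it. A gene was called when limma gave an adjusted p under 0.05 over all genes tested. The 3 DiBP libraries were close to each other, with 362 to 454 genes 2-fold apart in any pair. The 2 controls were not: 2338 genes (12.0% of those tested) were 2-fold apart between them, and combined library 3 was 2-fold apart from its group's libraries 1 and 2 in 1236 and 1219 genes. Genes that mark the tissues of a whole larva were detected throughout, with 52 of 52 muscle, 61 of 63 photoreceptor and 29 of 35 lens genes above 0 in all 11 libraries. In whole larvae, fewer cells of a type and less RNA per cell cannot be told apart.

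Against both controls, 2997 genes (15.4% of those tested) were higher and 2574 (13.2%) lower in DiBP offspring, 5571 in all (28.6%). A gene whose direction turned between the controls would have had too large a spread to be called. By the rule of the call, therefore, all 5571 had the same direction against each control library alone. Fewer passed the test in that stricter form: 2544 (13.1%) were called against control 1 alone and against control 2 alone, 1486 higher (7.63%) and 1058 lower (5.44%). These are the genes said below to have held against each control. For each called gene named below the DiBP and control values did not overlap, as for 54.6% of all genes tested. A further 2427 were called against control 1 alone and not against control 2 alone, 305 the other way round, and 295 against neither. Against control 1 alone 8269 genes (42.5%) were called, and against control 2 alone 3291 (16.9%). Each of those fits rests on a lone control that is assumed to vary like the other groups, and so leaves out the difference between the controls.

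**Figure D1:**
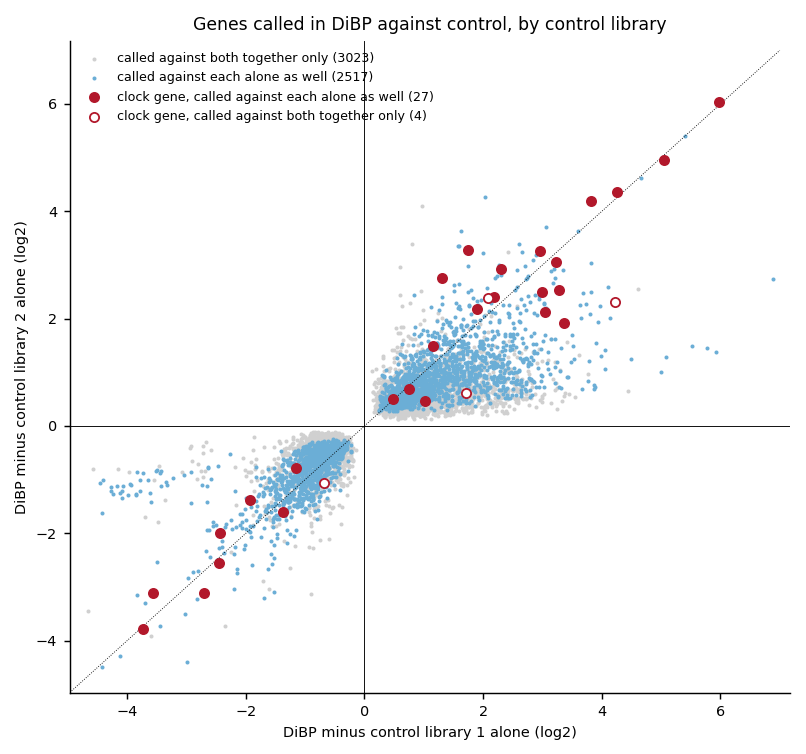
Change of each of the 5571 called genes in DiBP offspring against control library 1 alone (x axis, log2) and against control library 2 alone (y axis, log2). Many clock genes (red, filled where called against each control alone) lie near the dotted line of equal change. Others do not: cry5 and cry-dash changed more against control 2 (3.28 and 2.75) than against control 1 (1.75 and 1.31). Tefb changed more against control 1 (3.36) than against control 2 (1.92). The grey and blue clouds of other genes stretch along the x axis, where the change was larger against control 1.

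Clock genes were called in larger shares than all genes tested. The labels do not state the collection hour. A difference in hour between the groups therefore cannot be told apart from parental exposure here, and was not tested. Of 48 clock genes tested, from 7 lists, 22 were higher and 9 lower, shares of 45.8% and 18.8% against 15.4% and 13.2% of all genes tested. Of these 31, 27 held against each control, 19 higher and 8 lower. The median change over the 48 was 0.52, against 0.02 for all genes tested, and it was 0.45 against control 1 alone and 0.44 against control 2 alone.

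All 4 period genes, the core repressors of the loop, rose and held against each control. PER1 (ENSDARG00000012499) had 23.8, 25.9 and 24.1 FPKM in DiBP larvae, against 0.664 and 0.725 in control larvae. Its difference was 5.0 ± 0.35 (adjusted p = 1.54e-05). The second PER1 gene (ENSDARG00000056885) had 6.21, 7.21 and 6.83 FPKM in DiBP larvae and 0.267 and 0.243 in controls, a difference of 4.31 ± 0.58 (adjusted p = 6.51e-04). Neither gene had a DiBP library anywhere near a control. PER3 (ENSDARG00000010519) stood at 15.3, 17.6 and 16.1 FPKM with DiBP and at 3.61 and 3.1 FPKM in controls (2.3 ± 0.18). PER2 (ENSDARG00000034503), which light induces in zebrafish, moved less, with 49.6, 50.9 and 48.1 FPKM in DiBP larvae and 22.9 and 18.3 FPKM in controls (1.32 ± 0.22, adjusted p = 0.00202). All 4 were also higher in DiBP than in DBP offspring and than in combined offspring, comparisons in which 11.4% and 23% of all genes tested were called.

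The cryptochromes split. CRY2 (ENSDARG00000102403) had 16.0, 20.3 and 18.8 FPKM in DiBP larvae, against 1.93 and 2.18 in controls. The change of 3.14 ± 0.16 (adjusted p = 2.43e-06) was close to the same against either control, at 3.22 and 3.06. The photolyase relatives cry5 (ENSDARG00000019498) and cry-dash (ENSDARG00000002396), which belong to a family of light-driven DNA repair enzymes, rose by 2.51 ± 0.34 and 2.03 ± 0.32. In cry-dash the controls were apart, with 45.4, 44.5 and 45.1 FPKM in DiBP larvae but 18.7 in control 1 and 6.85 in control 2. Against this, cry3b (ENSDARG00000091131) fell to 18.2, 19.8 and 17.4 FPKM in DiBP larvae, against 105 and 112 in controls (-2.50 ± 0.09, adjusted p = 2.59e-07). Of the same family, cry3a (ENSDARG00000069074) fell by 1.49 ± 0.19 and cry4 (ENSDARG00000011890) by 0.97 ± 0.14. The 2 CRY1 genes did not pass, at 0.55 ± 0.59 (ENSDARG00000011583) and 0.72 ± 0.26 (ENSDARG00000045768).

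NR1D1 (ENSDARG00000033160), the Rev-erb repressor of the BMAL genes, had the largest change of any clock gene. Its level was 82.9, 90.6 and 88.8 FPKM in DiBP larvae, against 1.32 and 1.27 in control larvae (6.01 ± 0.89, adjusted p = 0.00109). Combined library 3, at 84.8 FPKM, lay among the DiBP libraries and far from 6.17 and 5.84 FPKM in combined libraries 1 and 2. NR1D2 (ENSDARG00000009594) stood at 92.7, 98.8 and 92.4 FPKM in DiBP larvae and at 12.4 and 10.2 FPKM in controls (3.11 ± 0.46), and nr1d2a (ENSDARG00000003820) rose by 0.74 ± 0.14. Among the ROR genes, which act against Rev-erb on the same DNA element, rorcb (ENSDARG00000017780) fell to 4.22, 4.25 and 4.03 FPKM in DiBP larvae, against 58.5 and 60.5 in controls (-3.76 ± 0.72, adjusted p = 0.00401). The other 7 tested members of the receptor list, nr1d4a, nr1d4b and 5 ROR genes among them, did not pass.

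Of 6 activators of the loop 3 fell, of which 2 held against each control. Bmal2 (ENSDARG00000041381) had 0.471, 0.818 and 0.724 FPKM in DiBP larvae, against 4.09 and 2.99 in controls (-2.21 ± 0.21, adjusted p = 1.22e-04). BMAL1 (ENSDARG00000006791) had 13.6, 13.9 and 13.8 FPKM in DiBP larvae, against 54.3 and 37.3 in controls (-1.65 ± 0.22). A CLOCK gene (ENSDARG00000011703) fell by 0.87 ± 0.29 without holding against each control, while the other CLOCK and BMAL1 genes and npas2 did not pass. BHLHE40 (ENSDARG00000004060) and BHLHE41 (ENSDARG00000041691), repressors that compete with CLOCK and BMAL for their DNA site, rose by 2.03 ± 0.14 and 2.74 ± 0.17. The repressor ciarta (ENSDARG00000058094) stood at 51.8, 57.2 and 51.7 FPKM with DiBP and at 3.83 and 2.93 FPKM in controls (4.01 ± 0.40). Its copy ciartb (ENSDARG00000088171) had 1.15, 2.07 and 2.18 FPKM in DiBP larvae and was listed at 0 and 0.282 FPKM in controls, and was called without holding against each control.

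Of 9 output factors of the clock 6 rose and 1 fell, with 4 and 1 that held against each control. Tefa (ENSDARG00000039117) had 101, 108 and 103 FPKM in DiBP larvae, against 21.6 and 14.1 in controls (2.61 ± 0.23, adjusted p = 6.33e-05), and tefb (ENSDARG00000098103) and dbpa (ENSDARG00000063014) rose by 2.64 ± 0.40 and 2.58 ± 0.39. The repressor nfil3-5 (ENSDARG00000094965) fell to 10.5, 10.7 and 10.5 FPKM in DiBP larvae, against 129.8 and 95.8 in controls (-3.34 ± 0.69). Its relative nfil3-6 (ENSDARG00000087188) rose by 2.90 ± 0.60, so members of 1 repressor family went in opposite directions. Of 6 kinases and turnover factors of clock proteins 2 rose and 1 fell, and all 3 held against each control. The rises were those of csnk1da (ENSDARG00000008370) and CSNK1D (ENSDARG00000006125), kinases of period proteins, at 0.72 ± 0.08 and 0.49 ± 0.10.

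**Figure D2:**
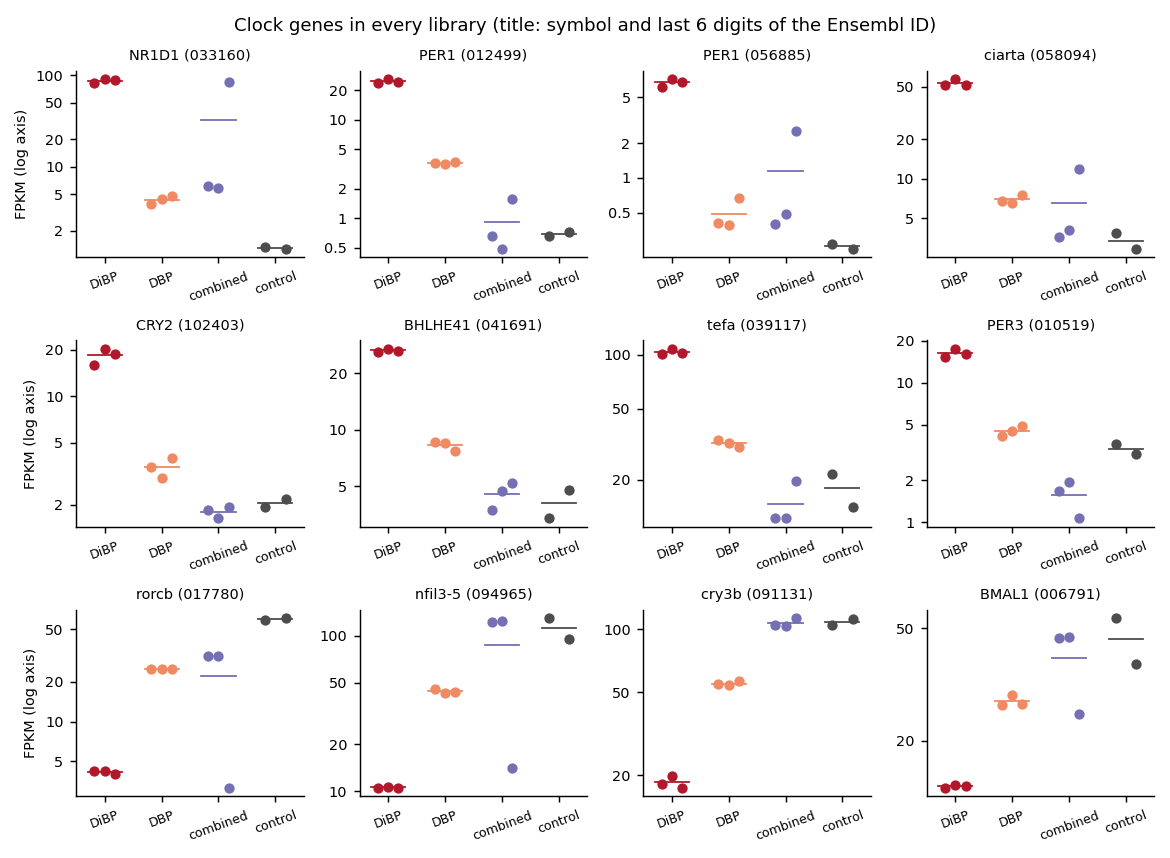
FPKM (log axis) of 12 clock genes in each library of DiBP, DBP, combined and control offspring. Points are libraries and lines are group means. The DiBP libraries lie above both controls in the upper 8 genes and below both in the lower 4, and in NR1D1, rorcb and nfil3-5 combined library 3 sits near the DiBP libraries.

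To separate changes that move with the clock from others, a clock score was computed per library as the difference between 2 mean log2 levels. The first was that of 10 genes that peak around the onset of day (Rev-erb, ciart and period genes, without PER2). From it was taken that of 8 genes that peak in the evening (BMAL, CLOCK, npas2, rorcb and nfil3-5). The score was 2.60, 2.64 and 2.75 in DiBP libraries and -1.74 and -1.62 in controls. DBP libraries lay between, at -0.41 to -0.19, and combined libraries stood at -1.32, -1.41 and, in library 3, 1.42. With the score as a further term in the fit, a gene's slope on it measures whether the gene moves with the score within groups, and its DiBP term measures what remains. Because the score varied little within the other groups, this slope rests almost wholly on combined library 3. Without that library limma called no gene as moving with the score, 219 genes had a slope in the direction of their DiBP change at an unadjusted p under 0.05, and no DiBP difference passed beside the score (72 at an unadjusted p under 0.05).

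By this measure 58 called genes (0.298% of those tested) moved with the clock score, 71 (0.365%) moved against it, and 818 (4.2%) were apart from it, meaning that they were still called with the score as a term and had no called slope. Of the 58 and the 818, 32 and 565 held against each control (0.164% and 2.9% of all genes tested). The remaining called genes could not be placed. The clock genes themselves were not cleanly placed by it either. Of the 31 called, from 48 tested, 9 moved with the score, 4 moved against it and 16 were still called with it as a term. Among all 5571 called genes, 891 were still called with it (4.58% of all genes tested). Of the 9 that moved with it, 8 were members of the score (both PER1 genes, NR1D1, NR1D2, ciarta, rorcb, BMAL1 and nfil3-5), whose slopes are therefore a description, and the ninth was dbpb (ENSDARG00000057652). PER2 and nfil3-6, both higher in DiBP larvae, moved against the score: PER2 had 12.7 FPKM in combined library 3, against 25.97 and 23.7 in combined libraries 1 and 2.

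**Figure D3:**
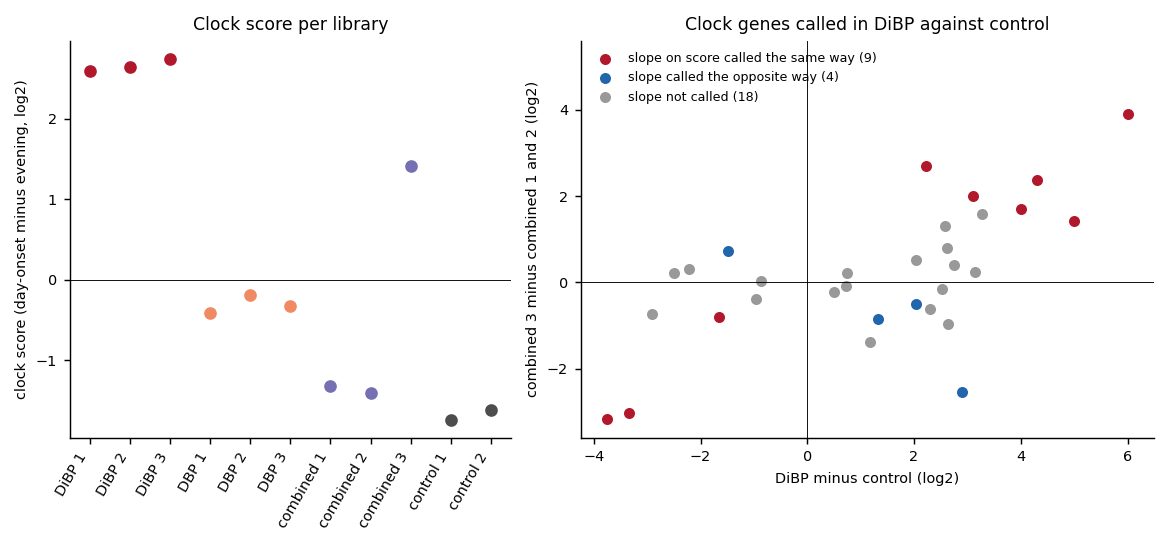
Left, clock score of each library (log2, day-onset minus evening genes). Right, the 31 clock genes called in DiBP offspring, with the change in DiBP against control (x axis, log2) and the difference of combined library 3 from combined libraries 1 and 2 (y axis, log2). Genes with a slope called in the direction of their DiBP change (red, 9) lie in the upper right and lower left, and those called the opposite way (blue, 4) lie in the other corners. The slope rests almost wholly on the difference shown on the y axis, so the corners of the coloured genes follow from how they were called.

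A further measure, chosen after the values were seen, shared no library with the DiBP and control groups. It was the difference between DBP offspring and combined libraries 1 and 2, whose clock scores also differ. Their parental exposure differs too, so a call in this comparison does not by itself place a gene with the clock. There, 3949 genes (20.3% of those tested) were called. Of the 31 called clock genes, 19 differed in the direction of their DiBP change and 1 in the opposite direction. Of all 5571 called genes, 1358 did so and 245 ran the opposite way. As shares of all genes tested, these were 6.98% (4.63% higher and 2.35% lower) and 1.26%. The strictest group, apart from the score and not called between DBP and combined libraries 1 and 2, comprised 459 genes (2.36%). Of those, 295 (1.52% of all genes tested) held against each control, 149 higher (0.765%) and 146 lower (0.75%). Clock genes were in this strictest group too, among them tefb, csnk1da and CSNK1D. A missing call on these measures therefore does not show that a gene lies outside the clock. The 2 measures picked out different numbers of genes, 58 and 1358, so membership beyond the clock genes depends on the measure.

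Outside the clock lists, the largest rise among genes that moved with the score was that of nub1 (ENSDARG00000061417), which takes part in the breakdown of ubiquitin-like proteins. It had 11.9, 13.4 and 12.7 FPKM in DiBP larvae, against 0.984 and 0.961 in controls (3.62 ± 0.39, adjusted p = 2.21e-04). No other group came near it, since DBP libraries had 0.186 to 0.285 FPKM and combined libraries 0.208 to 0.802. The DBP values lay below both controls although the DBP clock scores were higher, so between those groups nub1 did not follow the score. Of the 61 photoreceptor genes tested, 1 moved with the score. Among the other genes that did, the sodium-calcium exchanger slc24a2 (ENSDARG00000042988) rose by 2.03 ± 0.39, IMPG1 (ENSDARG00000074839), a matrix protein around photoreceptors, rose by 1.41 ± 0.22, and NEUROD1 (ENSDARG00000019566), a transcription factor of neurons and photoreceptors, fell by 1.70 ± 0.32. NEUROD1 had 65.0, 64.7 and 60.04 FPKM in DiBP larvae and 231 and 196 FPKM in controls, while DBP libraries had 145 to 158. The myc relative mych (ENSDARG00000077473) rose by 1.33 ± 0.19. The nucleotide enzymes uck2b (ENSDARG00000022213) and IMPDH1 (ENSDARG00000029524) and the inositol phosphate kinase IPMK (ENSDARG00000029291) fell by 1.1 ± 0.16, 0.87 ± 0.15 and 1.01 ± 0.21.

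Of the 30 called genes of the photoreceptor list 9 were apart from the score, among them the following 4. The cone opsin kinase GRK7 (ENSDARG00000020602) had 63.5, 65.0 and 59.8 FPKM in DiBP larvae, against 10.8 and 8.55 in controls (2.74 ± 0.10, adjusted p = 2.59e-07). The 2 genes named ARR3, cone arrestins that shut off light signalling, rose by 2.68 ± 0.14 (ENSDARG00000056511) and 2.63 ± 0.14 (ENSDARG00000098475), and the cone phosphodiesterase PDE6C (ENSDARG00000100397) rose by 2.59 ± 0.15. All 4 also differed between DBP offspring and combined libraries 1 and 2 in the same direction. Those groups differ in parental exposure as well as in clock score, so this does not place the 4 genes with the clock. DBP libraries had 32.5 to 35.3 FPKM of GRK7, between the other groups.

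Among the genes of the strictest group above were lmod3 (ENSDARG00000062662), which nucleates actin filaments in muscle, and the cholesterol hydroxylase CYP27A1 (ENSDARG00000088013). Lmod3 had 3.28, 4.17 and 3.82 FPKM in DiBP larvae, against 0.181 and 0.382 in controls (3.43 ± 0.23, adjusted p = 1.46e-05). CYP27A1 had 2.1, 2.15 and 2.63 FPKM in DiBP larvae, against 12.3 and 8.69 in controls (-2.09 ± 0.17, adjusted p = 4.0e-05). Both also differed in the same direction from DBP and from combined offspring. The ammonium transporter RHCG (ENSDARG00000003203) and the small heat shock protein hspb6 (ENSDARG00000077236) rose by 2.61 ± 0.40 and 2.60 ± 0.47, in each case by more against control 1 alone (3.35 and 3.5) than against control 2 alone (1.87 and 1.70). Urahb (ENSDARG00000089331), an enzyme of urate breakdown, fell to 1.80, 1.82 and 1.37 FPKM in DiBP larvae, against 9.80 and 8.64 in controls (-2.36 ± 0.28). The glycolytic enzyme GPI (ENSDARG00000012987) fell by 0.99 ± 0.09 and INSIG2 (ENSDARG00000113367), which restrains sterol synthesis, rose by 1.60 ± 0.22. The uncharacterised gene si:ch73-29c22.1 (ENSDARG00000090948) rose by 2.91 ± 0.22. Apart from the score too, si:ch211-226f24.4 (ENSDARG00000092042) fell by 2.22 ± 0.22 but was called the opposite way between DBP and combined libraries 1 and 2.

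Proteasome genes rose almost throughout. The proteasome is the complex that degrades ubiquitin-tagged proteins. Of 33 subunit genes tested, 32 were higher (97% against 15.4% of all genes tested), and 29 held against each control. The median change was 1.12, at 1.44 against control 1 alone and 0.83 against control 2 alone. PSMD1 (ENSDARG00000003189), of the regulatory particle, had 43.5, 40.8 and 41.9 FPKM in DiBP larvae, against 15.9 and 17.8 in controls (1.36 ± 0.13, adjusted p = 1.22e-04). PSMC4 (ENSDARG00000027099), an ATPase of the base, had 61.1, 59.6 and 66.5 FPKM in DiBP larvae, against 21.9 and 29.3 in controls (1.34 ± 0.12). PSMC6 (ENSDARG00000037038) and PSMD8 (ENSDARG00000020454) rose by 1.09 ± 0.11 and 1.29 ± 0.14. PSMD4 (ENSDARG00000101295), named because it was the only member not called, stood at 0.41 ± 0.23. PSMC4 was the 1 member still called with the clock score as a term, and none moved with the score, so 31 of the 32 could not be placed by it. Among all 5571 called genes, 891 were still called with it. The median change of the proteasome list was 0.50 with the score as a term. Of the 33 tested, 14 were called higher and also differed between DBP and combined libraries 1 and 2 in that direction, against 4.63% of all genes tested. Of the same 33, 8 were also called higher than in DBP and in combined offspring, against 2.48% of all genes tested. Median log2 levels of the list were 5.94, 5.81 and 5.87 in DiBP libraries, 5.50 to 5.57 in DBP and 4.44 and 5.10 in control libraries. They were 5.11 and 5.03 in combined libraries 1 and 2 and 5.47 in combined library 3.

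Cell cycle and replication genes fell. Of 73 tested, 39 were lower (53.4% against 13.2% of all genes tested) and 1 was higher, and 28 of the 39 held against each control. The median change was -0.84, and -0.82 and -0.76 against control 1 and control 2 alone. RRM2 (ENSDARG00000078069), the ribonucleotide reductase subunit that limits deoxynucleotide supply, had 2.97, 2.68 and 2.82 FPKM in DiBP larvae, against 12.0 and 11.3 in controls (-1.96 ± 0.13, adjusted p = 1.46e-05). CDK1 (ENSDARG00000087554), the kinase that drives entry into mitosis, had 2.79, 2.14 and 1.46 FPKM in DiBP larvae and 8.51 and 8.55 FPKM in controls (-1.95 ± 0.22). TOP2A (ENSDARG00000024488), which untangles chromosomes, and the mitotic kinase AURKB (ENSDARG00000037640) fell by 1.75 ± 0.20 and 1.34 ± 0.13. The change was smaller in PCNA (ENSDARG00000054155), the clamp of DNA polymerase, which fell by 0.46 ± 0.09, and MCM2 (ENSDARG00000102798), of the replicative helicase, was the member that rose, by 0.73 ± 0.18, without holding against each control. These 2 were chosen after their values were seen. RRM2 and AURKB were among 4 called members still called lower with the clock score as a term, while the other 36 could not be placed by it. The median change of the list was -0.51 with the score as a term. Its median log2 level was 1.01 and 0.99 in combined libraries 1 and 2 and 0.64 in combined library 3. Of the 73 tested, 11 were also called lower than in DBP and in combined offspring, against 2.37% of all genes tested.

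**Figure D4:**
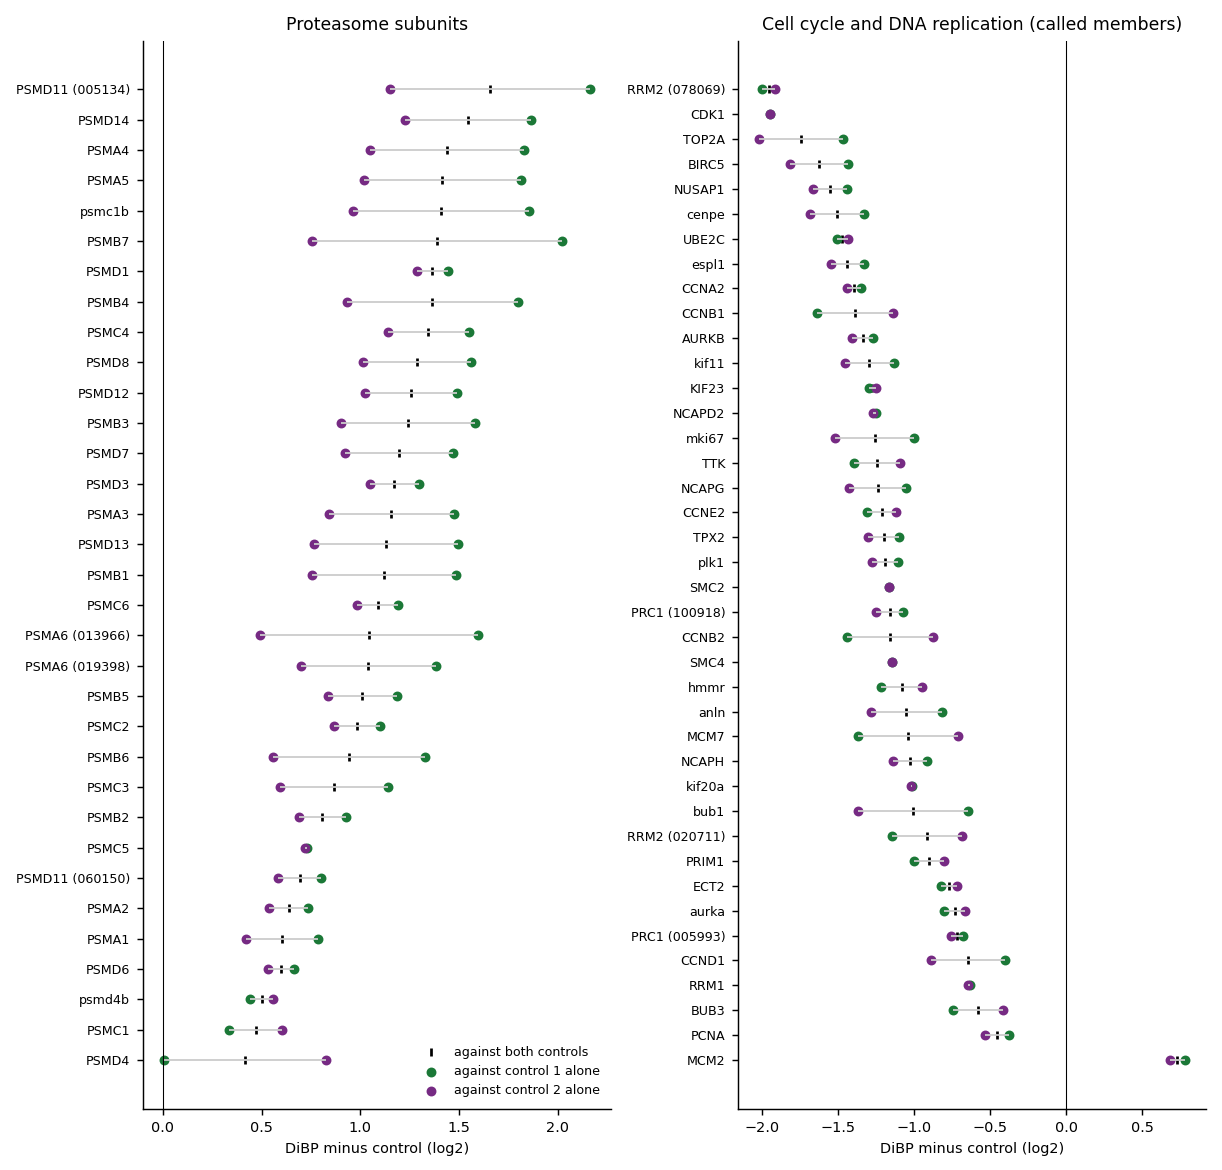
Change in DiBP offspring (log2) of 33 proteasome genes (left) and of the 40 called cell cycle and replication genes (right), against both controls (bars), control 1 alone (green) and control 2 alone (purple). All proteasome genes lie right of 0 and 39 of the 40 cell cycle genes left of it, whichever control is used. For called genes, which include 32 of the 33 proteasome genes, that agreement between controls follows from the rule of the call. Most proteasome genes changed more against control 1.

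Photoreceptor genes went both ways, 15 higher and 15 lower of 61 tested (24.6% each), with 12 and 11 that held against each control. Beside the cone genes above, guca1d (ENSDARG00000044629), a guanylate cyclase activator, had 1.37, 1.85 and 1.34 FPKM in DiBP larvae, against 0.171 and 0.0556 in controls (3.00 ± 0.36). LRAT (ENSDARG00000037278), an enzyme of the visual cycle, ran the other way, with 0.0587, 0.168 and 0.115 FPKM in DiBP larvae, against 2.23 and 2.75 in controls (-3.59 ± 0.32, adjusted p = 7.19e-05). Opn1mw1 (ENSDARG00000097008), a green cone opsin, fell by 1.04 ± 0.11. These 3 were chosen after their values were seen. Of the 61 tested, 20 called members differed between DBP and combined libraries 1 and 2 in the direction of their DiBP change and 4 in the opposite direction. Of all genes tested, 6.98% and 1.26% did so. Of the list of light and melatonin genes, 5 of 13 rose (38.5%) and 1 fell (7.69%), against 15.4% and 13.2% of all genes tested. The median change of the list was 0.08. Among its rises, the heat shock factor gene HSF2 (ENSDARG00000053097) had 31.3, 30.5 and 29.9 FPKM in DiBP larvae, against 7.05 and 7.24 in controls (2.13 ± 0.16). The ultraviolet damage genes DDB2 (ENSDARG00000041140) and XPC (ENSDARG00000039754) rose by 1.28 ± 0.20 and 0.86 ± 0.17.

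Of 34 markers of the gut lining 22 rose (64.7%, against 15.4% of all genes tested) and 13 held against each control, with a median of 1.0. The peptidases ANPEP (ENSDARG00000103878) and mep1a.1 (ENSDARG00000029747) rose by 1.96 ± 0.25 and 1.68 ± 0.17. No member fell by limma, by voom or at an unadjusted p under 0.05. DBP larvae were high as well: mep1a.1 had 4.54, 5.08 and 6.05 FPKM in DiBP larvae and 4.80, 5.40 and 4.56 FPKM in DBP larvae, against 1.77 and 1.45 FPKM in controls. With the clock score as a term 6 of the 22 were still called, against 891 of all 5571 called genes. None of the 22 was called higher in DiBP than in both DBP and combined offspring.

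Several marker lists changed by an amount that depended on which control was used. Of all genes tested, 15.4% were higher and 13.2% lower. Of 52 skeletal muscle genes 32 rose (61.5%) and 20 held, with a median of 2.08 against control 1 alone and 0.36 against control 2 alone. Myhz2 (ENSDARG00000012944), a fast myosin, had 741, 689 and 778 FPKM in DiBP larvae, against 125 in control 1 and 374 in control 2. Of 37 skin genes 24 rose (64.9%) and 17 held, with medians of 1.42 and 0.39, and krt4 (ENSDARG00000017624), a keratin of the surface layer, rose by 1.64 ± 0.23. Of 28 lens genes 13 fell (46.4%) and 8 held, with medians of -3.06 and -0.34. The lens crystallin CRYBA4 (ENSDARG00000024548) had 111, 107 and 126 FPKM in DiBP larvae, against 2219 in control 1 and 285 in control 2. Median log2 levels of the lens list were 3.18, 2.91 and 3.23 in DiBP libraries, 6.07 in control 1 and 2.82 in control 2, so control 1 alone lay high. For muscle they were 4.70, 4.53 and 4.73 in DiBP libraries, 2.01 in control 1 and 4.07 in control 2. With the clock score as a term, 3 of the 32 muscle genes, 8 of the 24 skin genes and 1 of the 13 lens genes were still called. Among all 5571 called genes, 891 were still called with it. The part of tissue makeup in these changes was not tested.

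In each of 4 lists of nuclear genes of energy metabolism more members rose than fell. Of 57 genes of glycolysis, gluconeogenesis and fasting 32 rose (56.1%, against 15.4% of all genes tested) and 3 fell, with 21 and 2 that held. Their median change was 0.71, at 0.93 against control 1 alone and 0.44 against control 2 alone. Fbp1a (ENSDARG00000021366), of gluconeogenesis, had 28.0, 27.08 and 24.6 FPKM in DiBP larvae, against 14.8 and 14.7 in controls (0.89 ± 0.11), and hexokinase HK2 (ENSDARG00000101482) rose by 1.65 ± 0.24. Of 83 nuclear genes of the respiratory chain 36 rose (43.4%, against 15.4% of all genes tested) and 3 fell, but 15 and 2 held. Their median change was 0.36, at 0.51 against control 1 alone and 0.15 against control 2 alone. Of the 13 genes of the mitochondrial genome 7 fell (53.8%, against 13.2% of all genes tested), of which 3 held, and MT-ND5 (ENSDARG00000063921) had 339, 386 and 373 FPKM in DiBP larvae, against 708 and 610 in controls (-0.80 ± 0.12). Of 36 lipid synthesis genes 12 rose (33.3%, against 15.4% of all genes tested) and 4 held, with FASN (ENSDARG00000087657), the fatty acid synthase, at 0.86 ± 0.11 and ACACA (ENSDARG00000078512), acetyl-CoA carboxylase, at 1.07 ± 0.13. Of 43 genes of fatty acid oxidation 14 rose (32.6%) and 3 fell (6.98%), with 9 and 1 that held.

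Of 45 genes of foreign-compound metabolism 17 rose (37.8%, against 15.4% of all genes tested) and 9 held against each control. The 6 that fell made up 13.3%, near the 13.2% of all genes tested, and 2 of them held. These 2 were cytochrome P450 genes of 1 family. Cyp2aa11 (ENSDARG00000103456) had 0.122, 0.0390 and 0.120 FPKM in DiBP larvae, against 1.26 and 1.71 in controls (-3.02 ± 0.28, adjusted p = 1.01e-04), and cyp2aa4 (ENSDARG00000098803) had 0.111, 0.212 and 0.108 FPKM in DiBP larvae, against 1.81 and 1.66 in controls (-2.90 ± 0.30). DBP larvae stood on the other side of the controls for cyp2aa11, at 2.12, 2.65 and 2.82 FPKM, so the isomers differed by -3.84 ± 0.25 (DiBP minus DBP, adjusted p = 1.98e-05). Cyp2ad3 (ENSDARG00000022650) rose by 1.24 ± 0.10 and the efflux pump gene abcb5 (ENSDARG00000021787) by 1.2 ± 0.15. Near-identical copies of P450 genes can share reads, so single members of this family are uncertain.

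**Figure D5:**
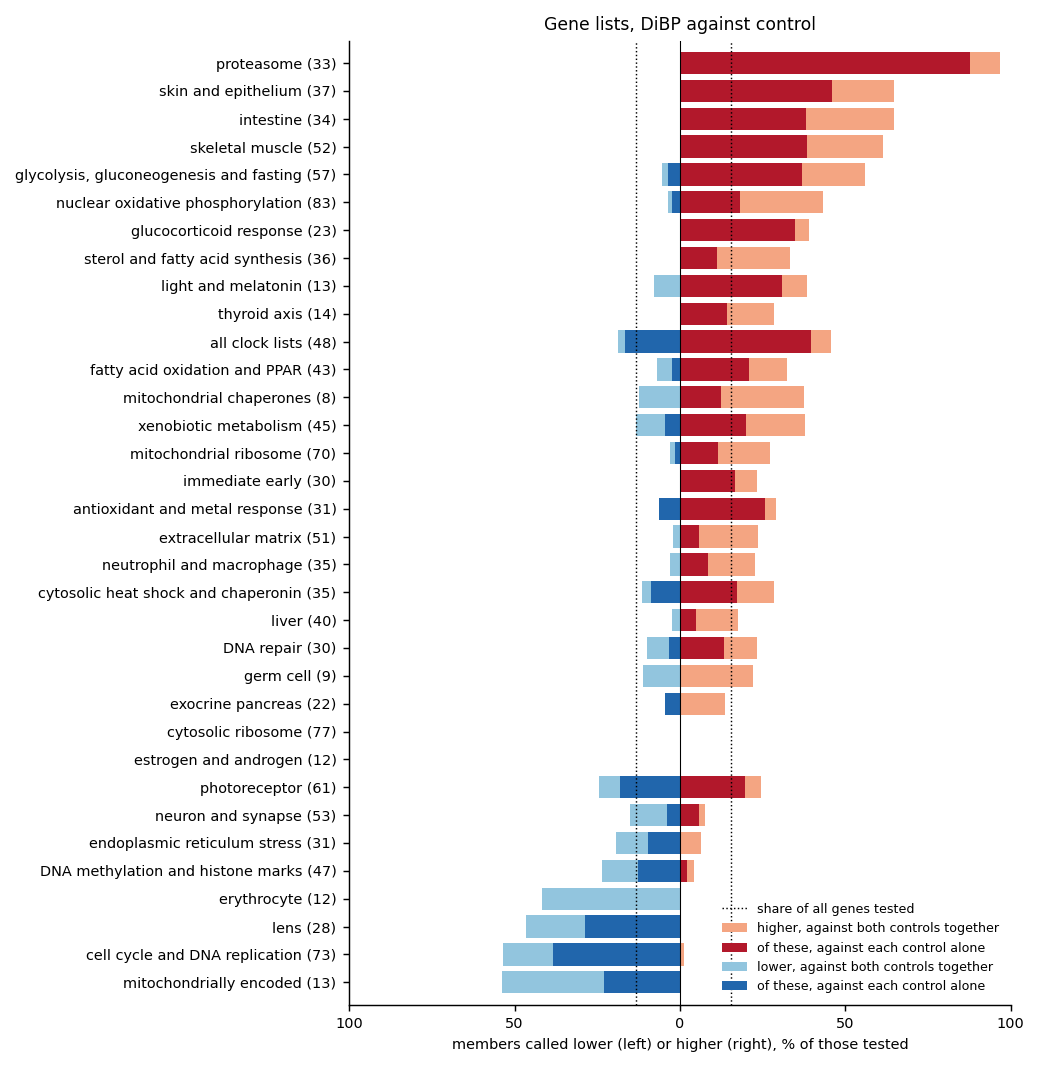
Share of the tested members of each gene list (number in brackets) called lower (left) or higher (right) in DiBP offspring. Dark bars are the part that held against each control library alone, and dotted lines are the shares of all genes tested (13.2% lower, 15.4% higher). Proteasome genes lie at 97% on the right, and cell cycle, lens and mitochondrially encoded genes reach about as far as 53.4%, 46.4% and 53.8% on the left.

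Against the other exposed groups, 2222 genes (11.4%) differed between DiBP and DBP offspring and 4485 (23%) between DiBP and combined offspring. Of the 5571 genes called against control, 945 differed in the same direction in both of these comparisons. They made up 4.85% of all genes tested, 2.48% higher and 2.37% lower. Of these, 766 (3.94% of all genes tested) also held against each control, 405 higher (2.08%) and 361 lower (1.85%). These comparisons share the DiBP libraries. Clock genes made up 22 of the 945, with 16 higher and 6 lower, out of 31 called. CRY2 stood 2.32 ± 0.14 above DBP and 3.38 ± 0.14 above combined offspring, nub1 5.28 ± 0.35 and 4.88 ± 0.35, and HSF2 1.49 ± 0.14 and 2.25 ± 0.14. For cry3b the differences were -1.62 ± 0.08 from DBP and -2.41 ± 0.08 from combined offspring.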

How the data were processed

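Each library's deposited file lists FPKM values per gene, which the authors made after HISAT2 2.1.0 alignment and HTSeq 0.6.0 counting on GRCz10, per the submitters' processing notes. Per the labels' protocols, larvae were extracted with Trizol, and 3 µg of RNA per library was prepared with NEBNext Ultra chemistry for 150 bp paired reads. No source used here gives the annotation release, gene lengths or strand setting. Overlapping genes, antisense genes and near-identical copies may therefore share reads. A symbol was found for 25392 of 27625 Ensembl IDs, and many are human symbols that paralogues share.

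Reads per gene could be recovered as whole numbers (within 0.01) for 100% of values. The reads supplied the depths, a low-value filter (10 reads at the median depth, expressed as CPM, in 2 or more libraries, and 15 in total) that removed 8160 genes, TMM factors (0.9346 to 1.1012) and the voom alternative. DiBP and control offspring were compared with limma 3.58.1 in R 4.3.3. Its input was log2 of FPKM divided by the TMM factor, plus 0.1, and variances were moderated with a trend. All 11 libraries shared 1 fit with 4 group means, which left 7 residual degrees of freedom and gained 3.8 prior ones. Benjamini-Hochberg adjustment covered the 19465 genes tested. The read recovery, the TMM factors and the fits of DiBP against both controls and against each alone were tested on simulated data. That simulation held no difference between the controls. The clock split and the list counts were not tested in this way. Plots were made in Python 3.11.15 with NumPy 2.4.6 and Matplotlib 3.10.9.

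DBP minus combined was to define the split by clock if at least 50% of the called clock genes were called there in their DiBP direction. That held for 14 of 31, so the clock score was used, as the design provided. All tested clock genes were eligible to be named. So were the 8 largest rises and the 8 largest falls that moved with the score, and likewise apart from it, among called genes with a symbol that held against each control, did not overlap and averaged 5 FPKM or more in the higher group. From each list with 3 or more members that held, up to 4 with the lowest p were eligible; exceptions are marked in the text, which gives the main ones. Members and lists (40 lists, 1357 of 1470 names found) were chosen with earlier results of these data known. Some genes the rule covers are not reported here. Replicate numbers were not treated as pairs. Alternatives were other scalings, filters and pseudocounts, voom, a 2-fold threshold, a replicate block, only DiBP and control libraries, the clock score as a term, other splits by clock and libraries left out in turn.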

Additional observations from a re-analysis of the deposited data

How the results depend on the processing

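The number of genes called in DiBP against control was 5571, and 2866 with only the DiBP and control libraries in the fit, 1618 with the clock score as a term and 1947 at 2-fold or more. Leaving out a library gave 3291 (without control 1) to 8269 (without control 2), with 3675 without DiBP 3. The 2544 genes called against each control alone became 1777 to 3897 with a library left out, the highest without combined library 3, a setting chosen after seeing the data. The 58 genes moving with the clock score became 30 at 2-fold in both comparisons, 1374 and 1358 when the split was by DBP minus combined or by DBP minus combined libraries 1 and 2 (the last chosen after seeing the data), and 0 (without combined library 3) to 533 (without control 2) with a library left out, with 26 to 28 without any 1 DiBP library and 223 without control 1. The 818 apart from the score became 376 at 2-fold, and 0 (without combined library 3) to 3459 (without control 2), with 423 to 489 without any 1 DiBP library. DiBP against DBP called 2222, 1334 with the clock score and 686 at 2-fold, with 928 (without DiBP 3) to 4214 (without control 1) with a library left out, and 4212 without control 2. DiBP against combined called 4485, 2157 with the score and 1166 at 2-fold, with 2786 (without DiBP 3) to 6438 with a library left out. Other scalings, filters, pseudocounts and voom kept each of these counts within 1.5 times of its value; voom on the recovered reads called 5832 genes in DiBP against control. The causes were not tested. As deposited, without the TMM factors, 46.7% of called genes were higher, against 53.8%.

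Replicate numbers shared between groups did not pair the libraries (correlations of deviations from -0.034 to 0.136, with 6 of 11 libraries closest to their own number). With the replicate block 4904 genes were called in DiBP against control, 1812 against each control alone, 9 moved with the score and 368 were apart from it.

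Of 143 called genes that the naming rule covers, of which the text gives the main ones, 62 kept their call and direction under the alternatives. This means each of the 16 alternatives in which the gene was tested. The filter at a mean CPM of 5 or more kept 131 of the 143. With the clock score as a term the DiBP difference turned to -0.037 for NR1D1, 2.47 for rorca, 1.14 for rorcb, 0.77 for CLOCK (ENSDARG00000003631), 0.67 for npas2, 1.04 for BMAL1 (ENSDARG00000035732), -1.90 for dbpb, 0.51 for NFIL3, 1.36 for nfil3-5, -1.33 for si:dkeyp-57d7.4, -0.54 for slc24a2, -0.049 for ZNF395, 0.42 for NEUROD1 and 0.29 for IPMK. Genes that were not called changed sign with a library left out: rorab (-0.040 to 0.31, negative without control 2), that CLOCK gene (-0.52 to 0.16) and that BMAL1 gene (-0.74 to 0.38), both positive without control 2, and NFIL3 (-0.45 to 0.14) and HLF (-0.072 to 0.26), both turned without control 1, HLF also without DiBP 3 (-0.031).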

Other observations

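Gene lists not described above are given here as values, without an explanation. Of all genes tested, 15.4% were higher and 13.2% lower, and 7.63% and 5.44% held against each control alone. Of 31 antioxidant and metal response genes 9 rose (29%) and 2 fell (6.45%), with 8 and 2 that held. The metallothionein gene MT1X (ENSDARG00000041623) had 156, 148 and 140 FPKM in DiBP larvae, against 72.4 and 46.9 in controls (1.39 ± 0.15), and keap1a (ENSDARG00000016132), the sensor that restrains the oxidative stress factor Nrf2, rose by 1.2 ± 0.16. Catalase (CAT, ENSDARG00000104702), which breaks down hydrogen peroxide, fell to 7.76, 7.86 and 8.09 FPKM in DiBP larvae, against 15.8 and 12.8 in controls (-0.79 ± 0.11). Of 23 glucocorticoid-response genes 9 rose (39.1%) and 8 held, among them SOCS3 (ENSDARG00000025428), an inhibitor of cytokine signalling, at 83.8, 89.1 and 86.6 FPKM in DiBP larvae and 44.7 and 46.0 FPKM in controls (0.98 ± 0.08). DBP larvae had 79.9 to 85.9 FPKM of this SOCS3 gene. The second SOCS3 gene (ENSDARG00000026611) did not pass in DiBP against control, at -0.0005 ± 0.11. The list also holds both PER1 genes, and none of its members fell by limma, by voom or at an unadjusted p under 0.05.

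Of 35 heat shock and chaperonin genes 10 rose (28.6%) and 4 fell (11.4%), with 6 and 3 that held. HSF2, named above with the light and melatonin genes, was among the rises that held. Among the falls was HSPH1 (ENSDARG00000019874), a nucleotide exchange factor of HSP70, at 1.88, 2.12 and 1.94 FPKM in DiBP larvae, against 4.79 and 8.78 in controls (-1.62 ± 0.21). Of 31 genes of endoplasmic reticulum stress 2 rose (6.45%) and 6 fell (19.4%), and none of the rises and 3 of the falls held. The disulfide isomerase PDIA6 (ENSDARG00000009001) fell by 0.99 ± 0.13. Of 47 genes of DNA methylation and histone marks 2 rose (4.26%) and 11 fell (23.4%), with 1 and 6 that held, and mbd3b (ENSDARG00000061810), named for a methyl-CpG binding domain, had 5.70, 5.77 and 5.64 FPKM in DiBP larvae, against 10.1 and 10.1 in controls (-0.77 ± 0.09). Of 30 DNA repair genes 7 rose (23.3%) and 3 fell (10%), with 4 and 1 that held. DDB2 and XPC, named above beside the light and melatonin genes, were among the rises that held. The damage response gene GADD45A (ENSDARG00000104571) rose by 1.05 ± 0.08, while the second GADD45A gene (ENSDARG00000043581) did not pass, at 0.40 ± 0.19. Immediate early genes gave 7 of 30 higher (23.3%), of which 5 held, with NR4A1 (ENSDARG00000000796) at 0.80 ± 0.10. Mitochondrial ribosome genes gave 19 of 70 higher and 2 lower, with 8 and 1 that held. Extracellular matrix genes gave 12 of 51 higher (23.5%) and 1 lower, but 3 and 0 held, and their median was 0.69 against control 1 alone and 0.0035 against control 2 alone. FN1 (ENSDARG00000006526), fibronectin, stood at 1.34 ± 0.18. Mitochondrial chaperones gave 3 of 8 higher and 1 lower, with 1 and 0 that held, and the thyroid axis 4 of 14 higher, of which 2 held.

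Markers of neutrophils and macrophages gave 8 of 35 higher (22.9%) and 1 lower, with 3 and 0 that held. Markers of neurons gave 4 of 53 higher (7.55%) and 8 lower (15.1%), with 3 and 2 that held. Markers of liver gave 7 of 40 higher (17.5%) and 1 lower, with 2 and 0 that held. Markers of exocrine pancreas gave 3 of 22 higher (13.6%) and 1 lower, with 0 and 1 that held. Of 12 erythrocyte genes 5 were lower (41.7%), and of 9 germ cell genes 2 were higher and 1 lower, and none of these 8 calls held against each control. No gene of the cytosolic ribosome (77 tested) or of the estrogen and androgen list (12 tested) was called by limma or by voom. At an unadjusted p under 0.05 there were 3 higher in the ribosome list and 1 lower in the hormone list.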
